A study of Mus musculus with 6 samples.

Results

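The genes described here encode the enzymes of hepatic de novo lipogenesis, the helpers of that pathway and the transcription factors that drive it. They were chosen by name, as Srebf1, Mlxipl, Fasn, Acaca, Acacb, Acly, Acss2, Me1, Thrsp and Mid1ip1, and all 10 were measured among 21531 genes in all. RNA came from livers of wild-type mice aged 12 to 14 weeks, either fasted or refed, with 9 mice in each condition and no other allele or agent. Like amounts of RNA from 3 mice of 1 condition were pooled for each Affymetrix Mouse Gene 1.0 ST array, which gave 3 fasted and 3 refed arrays of different mice. An array of this kind reads each gene by a transcript cluster, a set of probes spread along its exons. How long the mice were fasted or refed, their sex and the time of day at sampling are not stated in the sources used here.

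De novo lipogenesis turns carbohydrate carbon into fatty acids in the cytosol. Acetyl-CoA is carboxylated to malonyl-CoA, and fatty acid synthase joins these units into palmitate at the expense of NADPH. In the liver the pathway is known for being switched on by feeding, through insulin acting on SREBP-1c (the product of Srebf1) and through sugar metabolites acting on ChREBP (the product of Mlxipl). SREBP-1c is made as a membrane precursor that has to be cut, so the mRNA level of Srebf1 is not a measure of its activity, and ChREBP and the carboxylases are also controlled on the protein.

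All values below are deposited log2 values from RMA (robust multi-array average). A change is the mean of the fasted arrays less that of the refed arrays, with a 95% confidence interval from limma, and a gene was called changed where its p, adjusted by the Benjamini-Hochberg method over all 21531 genes, was under 0.05. The replicates are pools, and a pool hides the spread among its own mice. On the second principal component the arrays fasted 3 and refed 2 stood apart from the other 4, with scores of -18.6 and -14.3.

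The 10 genes did not move together. Acss2 rose in the fasted liver and Mid1ip1 fell, and the other 8 did not pass the threshold. These 2 calls among 10 stand beside 3.02% of all genes called, 1.4% as higher and 1.62% as lower. In 6 of the 10 genes the fasted and refed values did not overlap, 3 with the fasted arrays above (Acss2, Me1 and Acacb) and 3 with them below (Mid1ip1, Thrsp and Fasn), where 18.8% of all genes showed no overlap, 8.16% with the fasted arrays above and 10.7% with them below. The median change of the 10 was -0.06, beside -0.01 over all genes, and 6 of the 10 had an unadjusted p under 0.05, beside 14.1% of all genes. Without both arrays that stood apart, Acss2 had a change of 0.80 and kept its call (limma adjusted p = 0.0235), while Mid1ip1 had a change of -0.54 at an adjusted p of 0.0501.

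**Figure D1:**
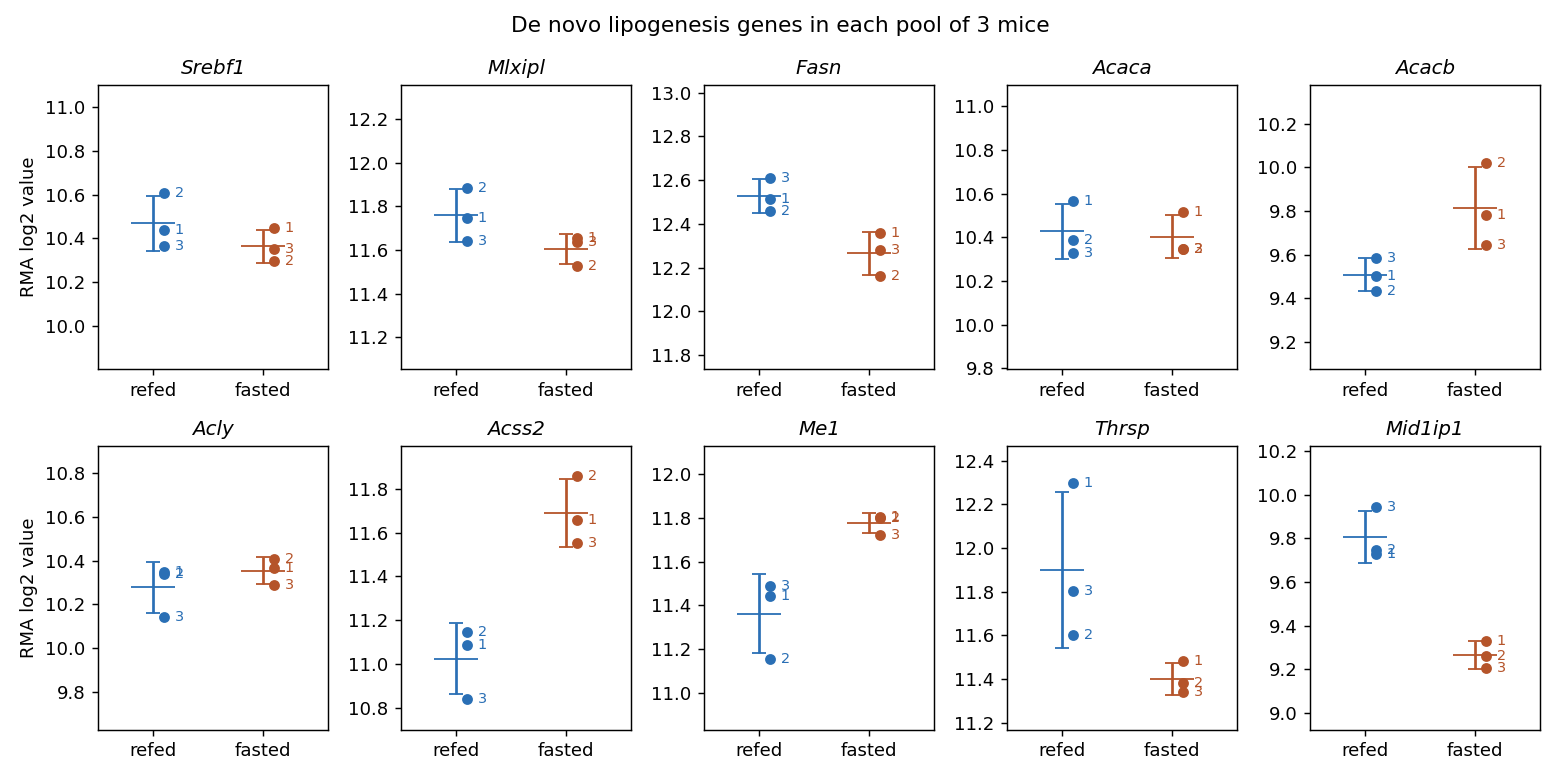
RMA log2 value (vertical axis, of equal length in every panel) of each of the 10 genes in each array. Points are pools of 3 mice, marked with their replicate number, with horizontal lines at the group mean and bars of 1 SD (n = 3); in Acss2, Me1 and Acacb all fasted points lie above the refed ones, and in Fasn, Thrsp and Mid1ip1 all lie below.

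The transcription factors come first. Srebf1, whose product activates genes of fatty acid synthesis, read 10.45, 10.30 and 10.35 in the fasted arrays and 10.44, 10.61 and 10.36 in the refed arrays. The groups overlapped, with fasted 1 above refed 1 and refed 3. Its change was -0.11 (95% interval -0.31 to 0.10, limma adjusted p = 0.753), so a fall beyond 0.31 or a rise beyond 0.10 lies outside the interval. Its transcript cluster lies on chromosome 11 (positions 60012586 to 60034106 of NCBIM37), and a value per gene does not tell SREBP-1a and SREBP-1c transcripts apart.

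Mlxipl, which encodes the carbohydrate response factor ChREBP, read 11.65, 11.53 and 11.64 in the fasted arrays and 11.75, 11.88 and 11.64 in the refed arrays. Only refed 3 fell within the range of the fasted arrays. The change was -0.15 (95% interval -0.36 to 0.05, limma adjusted p = 0.555). The difference between the changes of Srebf1 and Mlxipl was 0.05, with a two-sided exact permutation p of 0.3 (0.4 adjusted over the 4 pairs compared, where 3 arrays against 3 cannot give a p below 0.1), and it lay between 0.03 and 0.07 with each array left out.

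The supply of cytosolic acetyl-CoA depends on ATP citrate lyase, encoded by Acly, which splits exported citrate, and on acetyl-CoA synthetase 2, encoded by Acss2, which activates free acetate. Acss2 read 11.66, 11.86 and 11.55 in the fasted arrays and 11.09, 11.15 and 10.84 in the refed arrays. Every fasted array lay above every refed array, and fasted 3 and refed 3 were the lowest of their groups. Acss2 rose by 0.67 (95% interval 0.42 to 0.91, 1.59-fold, limma adjusted p = 0.00982), a larger change than that of 98.8% of all genes. Without fasted 1 its change was 0.68 at an adjusted p of 0.0503, which ended the call, and with any other single array left out the call held.

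Acly read 10.37, 10.41 and 10.29 in the fasted arrays and 10.35, 10.34 and 10.14 in the refed arrays. The groups overlapped, and refed 3 was the lowest of all. Its change was 0.08 (95% interval -0.13 to 0.28, limma adjusted p = 0.844). The change of Acss2 exceeded that of Acly by 0.59, and by 0.53 to 0.62 with each array left out, at an exact permutation p of 0.1, the smallest that 3 arrays against 3 can give (0.2 over the 4 pairs).

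The promoter of Acss2 is shown as that of the member that rose, from 250 bases before to 50 bases after its annotated start. It comes from RefSeq (GRCm38.p6, chr2:155517793-155518092, plus strand), and the capitals mark a CCAAT box at -73, read as ATTGG on this strand, and 5 GC boxes, read as CCGCCC. Positions are those of a motif's first base, with the start as 1 and the base before it as -1.
Acss2: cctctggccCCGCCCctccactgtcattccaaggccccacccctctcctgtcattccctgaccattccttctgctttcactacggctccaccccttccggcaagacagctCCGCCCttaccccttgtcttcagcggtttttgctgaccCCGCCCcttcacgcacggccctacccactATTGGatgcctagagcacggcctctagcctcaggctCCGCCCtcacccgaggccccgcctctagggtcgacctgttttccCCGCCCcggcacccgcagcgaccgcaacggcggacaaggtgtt

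The carboxylases make malonyl-CoA. Acaca encodes acetyl-CoA carboxylase 1, the cytosolic form that feeds fatty acid synthesis, and Acacb encodes acetyl-CoA carboxylase 2, held at the mitochondrial surface, where malonyl-CoA restrains the entry of fatty acids for oxidation. Acacb read 9.78, 10.02 and 9.65 in the fasted arrays and 9.50, 9.44 and 9.59 in the refed arrays. All fasted arrays were above all refed arrays, with fasted 3 closest to them and fasted 2 highest. The change of 0.31 (95% interval 0.07 to 0.54) did not pass over all genes, at a limma adjusted p of 0.190, and it was 0.21 without fasted 2 and 0.39 without fasted 3.

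Acaca read 10.52, 10.35 and 10.35 in the fasted arrays and 10.57, 10.39 and 10.33 in the refed arrays. The groups overlapped almost fully, with the replicate 1 array highest in both. Its change was -0.02 (95% interval -0.24 to 0.19, limma adjusted p = 0.969), and its sign turned with 1 array left out, at 0.0046 without fasted 2, 0.0040 without fasted 3 and 0.046 without refed 1. These values come from the brighter of its transcript clusters, which has 53 probes of a cross-hybridising type and is placed by the array annotation on chromosome 12 (10158946 to 10165038), while the gene lies on chromosome 11.

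The other Acaca cluster lies on chromosome 11 (83943174 to 84213185) and has 15 probes that hit 1 place. It read 9.74, 9.62 and 9.56 in the fasted arrays and 9.97, 9.60 and 9.58 in the refed arrays, a change of -0.08. There too the groups overlapped, and refed 1 stood highest. For the comparison with Acacb the brighter Acaca cluster was used. The change of Acacb exceeded that of this brighter cluster by 0.33, and by 0.20 to 0.42 with each array left out. The exact permutation p was 0.1 (0.2 over the 4 pairs).

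Fasn encodes fatty acid synthase, which builds palmitate from malonyl-CoA. It read 12.36, 12.16 and 12.28 in the fasted arrays and 12.51, 12.46 and 12.61 in the refed arrays. All 3 fasted arrays lay below the refed arrays, with fasted 1 and refed 2 closest to each other. The change of -0.26 (95% interval -0.46 to -0.06) had an unadjusted p of 0.0156 and a limma adjusted p of 0.194, and it ranged from -0.31 to -0.21 over all the alternatives tried, none of which called it.

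Malic enzyme 1, encoded by Me1, gives NADPH for the same synthesis by turning malate into pyruvate. It read 11.81, 11.80 and 11.72 in the fasted arrays and 11.44, 11.16 and 11.49 in the refed arrays. The fasted arrays were tightly grouped above the refed arrays, among which refed 2 was lowest. The change was 0.41 (95% interval 0.19 to 0.64) at a limma adjusted p of 0.0594, and the call was made under quantile normalization (0.0374), with a variance prior that follows the mean (0.0308), with array weights (0.0377) and without dim genes (0.0333).

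The transcript cluster of Me1 on chromosome 9 (86474983 to 86589834) is of a cross-hybridising type, as is a further cluster on chromosome 13 (62915449 to 62916150) that the array annotation gives to Me1. The latter was left out of the fit because its refed mean lay over 1 from that in the annotated table. It read 10.79, 10.95 and 10.51 in the fasted arrays and 10.52, 9.92 and 10.43 in the refed arrays. Here the groups overlapped, with fasted 3 below refed 1. With cross-hybridising clusters left out, Me1 had no value, and Acss2 and Mid1ip1 were the members called among the 9 that remained.

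**Figure D2:**
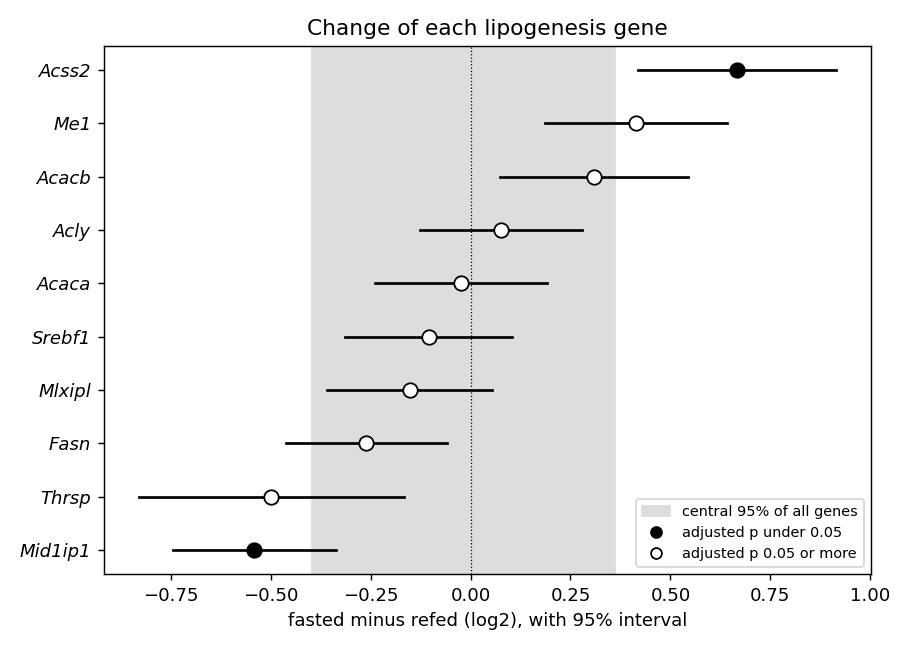
Change of each of the 10 genes (horizontal axis, fasted minus refed on the log2 scale) with its 95% confidence interval from limma. Filled points have an adjusted p under 0.05 over all genes, and the grey band, from -0.40 to 0.36, holds the central 95% of the changes of all genes; Acss2, Me1, Thrsp and Mid1ip1 lie outside it.

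Thrsp and Mid1ip1 are paralogues. Thrsp encodes Spot 14, a thyroid hormone responsive protein of lipogenic tissues, and Mid1ip1 encodes its relative MIG12, which promotes the polymerisation of acetyl-CoA carboxylase. Mid1ip1 read 9.33, 9.26 and 9.21 in the fasted arrays and 9.73, 9.75 and 9.94 in the refed arrays. All fasted arrays lay below all refed arrays, and the spread within each group was small beside the gap. Mid1ip1 fell by 0.54 (95% interval -0.74 to -0.34, 1.45-fold lower, limma adjusted p = 0.0104), a larger change than that of 97.9% of all genes, and the call held with each single array left out (adjusted p 0.0142 to 0.0468).

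Thrsp read 11.48, 11.38 and 11.34 in the fasted arrays and 12.30, 11.60 and 11.80 in the refed arrays. The fasted arrays were all lower and close together, while refed 1 stood well above refed 2 and refed 3. The change of -0.50 (95% interval -0.83 to -0.17) was near that of Mid1ip1, but with an SD of 0.36 among the refed arrays, beside 0.07 among the fasted, its limma adjusted p was 0.123. Without refed 2 the change was -0.65 and was called (0.0247), and without refed 1 it was -0.30 and was not.

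The changes of the paralogues differed by 0.04, at an exact permutation p of 1. With each array left out the difference lay between -0.077 and 0.28, so these arrays neither separate the genes nor show that they moved alike.

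The promoters of the paralogues are shown because the genes are related while the windows share none of the motifs searched. No link of the motifs to the changes was tested. They are RefSeq sequences of GRCm38.p6, for Mid1ip1 chrX:10717115-10717414 on the plus strand and for Thrsp chr7:97417501-97417800 on the minus strand. Capitals mark 3 GC boxes in Mid1ip1, read as CCGCCC, and in Thrsp 2 CCAAT boxes, at -79 as ATTGG and at -52 as CCAAT.
Mid1ip1: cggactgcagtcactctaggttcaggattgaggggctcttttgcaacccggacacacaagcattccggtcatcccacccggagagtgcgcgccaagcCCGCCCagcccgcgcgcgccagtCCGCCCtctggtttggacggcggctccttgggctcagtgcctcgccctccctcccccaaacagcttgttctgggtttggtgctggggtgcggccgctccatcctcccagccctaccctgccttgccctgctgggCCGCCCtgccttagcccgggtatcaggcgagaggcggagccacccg
Thrsp: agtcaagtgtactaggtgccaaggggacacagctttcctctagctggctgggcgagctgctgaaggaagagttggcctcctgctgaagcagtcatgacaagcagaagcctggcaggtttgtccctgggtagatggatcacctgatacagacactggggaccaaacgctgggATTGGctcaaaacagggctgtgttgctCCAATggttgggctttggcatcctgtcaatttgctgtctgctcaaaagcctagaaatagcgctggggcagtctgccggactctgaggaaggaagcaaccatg

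All 10 genes had a RefSeq promoter, 14 sequences of 300 bases in all. Motifs were searched on both strands, and none of the marked stretches above overlaps another, while in Fasn 2 of 3 CCAAT boxes overlap. A GC box (GGGCGG) stood in 7 of the 14, beside 35.7% of 32851 mouse promoters, and a CCAAT box (CCAAT) in 9 of the 14, beside 37.4%. Of the called genes Acss2 held both motifs and Mid1ip1 the GC box alone. Over their promoters Acly, Me1, Mlxipl and Srebf1, which were not called, held both motifs too. The sterol response element searched (TCACNCCAC, in 1.24% of all promoters) and the E-box (CACGTG, in 7.15%) were each matched in 1 of the 14, in different promoters of Mlxipl. Direct repeats of the receptor half-site AGGTCA, with 4 bases (DR4) or 1 base (DR1) between them, were matched in none, beside 0.0152% and 0.0396% of all promoters. A match is a description of the letters and not a bound site, and no match says only that those letters are not in this window.

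**Figure D3:**
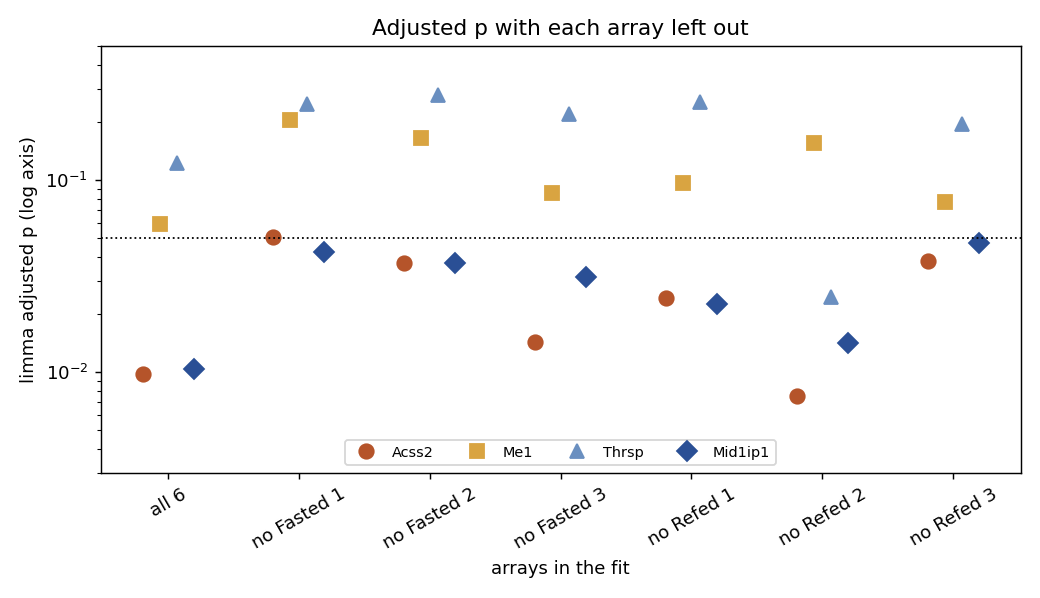
Adjusted p from limma (vertical, log axis) of the 4 genes with the smallest values, in the fit on all 6 arrays and with each array left out in turn (horizontal axis). The dotted line is 0.05; Mid1ip1 stayed under it throughout, Acss2 crossed it without fasted 1, Thrsp was under it without refed 2, and Me1 stayed above it.

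The genes whose values followed the called members most closely over the 6 arrays were sought among all genes. For Acss2 they were Fam134b (Pearson r = 0.995), a receptor for autophagy of the endoplasmic reticulum, Necab1 (0.990), a neuronal calcium-binding protein, and Casp6 (0.988), a caspase. Fam134b rose by 0.48, Necab1 by 0.38 and Casp6 by 0.98 in the fasted arrays. Of these calls that of Casp6 held without any single array, that of Necab1 was lost with any 1 array left out (limma adjusted p up to 0.188), and that of Fam134b was lost without fasted 1, fasted 2, refed 1 or refed 3 (up to 0.133).

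For Mid1ip1 they were Atf6b (Pearson r = 0.9999), a stress transducer of the endoplasmic reticulum, Ikbke (0.9996), a kinase of innate immune signalling, and Ablim3 (0.996), an actin-binding protein. In all 3 the order of the 6 arrays was that of Mid1ip1. Atf6b fell by 0.53, Ikbke by 0.55 and Ablim3 by 0.71, and of these calls that of Atf6b alone was lost with an array left out, without refed 3 (limma adjusted p = 0.0506). The arrays fall into the fasted and the refed group, so such an r follows mainly the group difference, and 922 genes for Acss2 and 1089 for Mid1ip1 had an r beyond 0.9 in size.

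The steps around the pathway were read from lists chosen by role. Calls in these lists and in the markers below stand beside 3.02% of all genes called, 1.4% as higher and 1.62% as lower. A count of 1 call among 19 or 22 genes is near that share and is not a result about its list. In elongation and desaturation, which lengthen palmitate and add double bonds, 1 of 14 genes rose and 2 fell, with a median change of 0.06. Elovl5, an elongase of polyunsaturated fatty acids, rose by 0.71 (limma adjusted p = 0.00183) and kept its call without any single array. Elovl6, which elongates palmitate itself, fell by 0.50 (0.0301) and Elovl1, an elongase of very long chains, fell by 0.40 (0.0463). The call of Elovl6 held only without refed 3 (up to 0.106 otherwise) and that of Elovl1 was lost with any 1 array left out (up to 0.188).

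Citrate export and NADPH supply, which bring carbon and reducing power to the cytosol, had no call among 23 genes (median 0.05). The smallest adjusted p were those of Acss3, a mitochondrial acyl-CoA synthetase for short chains, at 0.91 (limma adjusted p = 0.0546) and of Pcx, pyruvate carboxylase, at 0.25 (0.191). Acss3 read 9.27, 9.002 and 8.98 in the fasted arrays and 8.83, 7.86 and 7.84 in the refed arrays. All fasted arrays were higher, and refed 1 stood nearest to them, so that without refed 1 the change was 1.23 and was called (0.000698).

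In a list of genes around SREBP, for its processing and its partners, 1 of 19 was called (median 0.04). It was Ubxn4, a general factor of endoplasmic reticulum associated degradation, so the call is not one of SREBP processing itself. Ubxn4 fell by 0.52 (limma adjusted p = 0.0463), a call that held only without refed 2 (up to 0.149 otherwise). Of ChREBP partners and carbohydrate-responsive genes 2 of the 13 reported rose (median 0.07). Txnip, a binder of thioredoxin, rose by 1.40 (0.00129), also without any single array. Slc2a5, a fructose transporter, rose by 0.62 (0.0294), a call lost without fasted 1, fasted 3, refed 2 or refed 3 (up to 0.136).

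LXR, an oxysterol receptor that also drives Srebf1, and its targets had 4 of 14 genes called, all higher in the fasted arrays (median 0.16). These were the sterol transporter subunits Abcg8 (0.81, limma adjusted p = 0.00125) and Abcg5 (0.41, 0.0277), the phospholipid transfer protein Pltp (0.86, 0.00800) and Lpcat3 (0.42, 0.0233), which adds polyunsaturated chains to phospholipids. The call of Abcg8 held without any single array and that of Pltp was lost without fasted 1 (0.0559). Those of Abcg5 (lost without fasted 1, fasted 2, refed 1 or refed 3) and Lpcat3 (lost without fasted 1, fasted 2, refed 2 or refed 3) held in 2 of the 6 fits each, with adjusted p of up to 0.127 and 0.113. The list did not rise as a whole, with 10 positive and 4 negative changes. The negative ones, none called, were Nr0b2 (-0.35, limma adjusted p = 0.133), Abca1 (-0.21, 0.283), Nr1h3 (-0.19, 0.386) and Abcg1 (-0.03, 0.951).

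Of the insulin signal to lipogenesis 1 of 22 genes was called (median 0.10). Mtor, the kinase of the TOR complexes, rose by 0.50 (limma adjusted p = 0.0112) and lost its call without fasted 1 (0.0685). The control of acetyl-CoA carboxylase and fatty acid synthase had no call among 17 (median -0.05). Its smallest adjusted p were those of Hlcs, which attaches biotin to the carboxylases, at 0.41 (0.104) and Mlycd, which degrades malonyl-CoA, at 0.37 (0.147). Hlcs passed without fasted 3 (0.52, 0.0477).

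The genes that put the new fatty acids to use, in triglyceride, phospholipid and sterol esters, had 3 of 19 members higher and none lower (median 0.07). Lpin2, a phosphatidate phosphatase, rose by 0.83 (limma adjusted p = 0.00153) and Soat2, which esterifies cholesterol, by 0.67 (0.00725), and both kept their calls without any single array. Gpam, the first acyltransferase of glycerolipid synthesis, rose by 0.46 (0.0307), a call lost without fasted 1, fasted 2, refed 2 or refed 3 (up to 0.131). The separate mitochondrial fatty acid synthesis had no call among 10 genes (median 0.07), with Oxsm at 0.33 (0.0898) and Cbr4 at 0.23 (0.337) foremost.

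**Figure D4:**
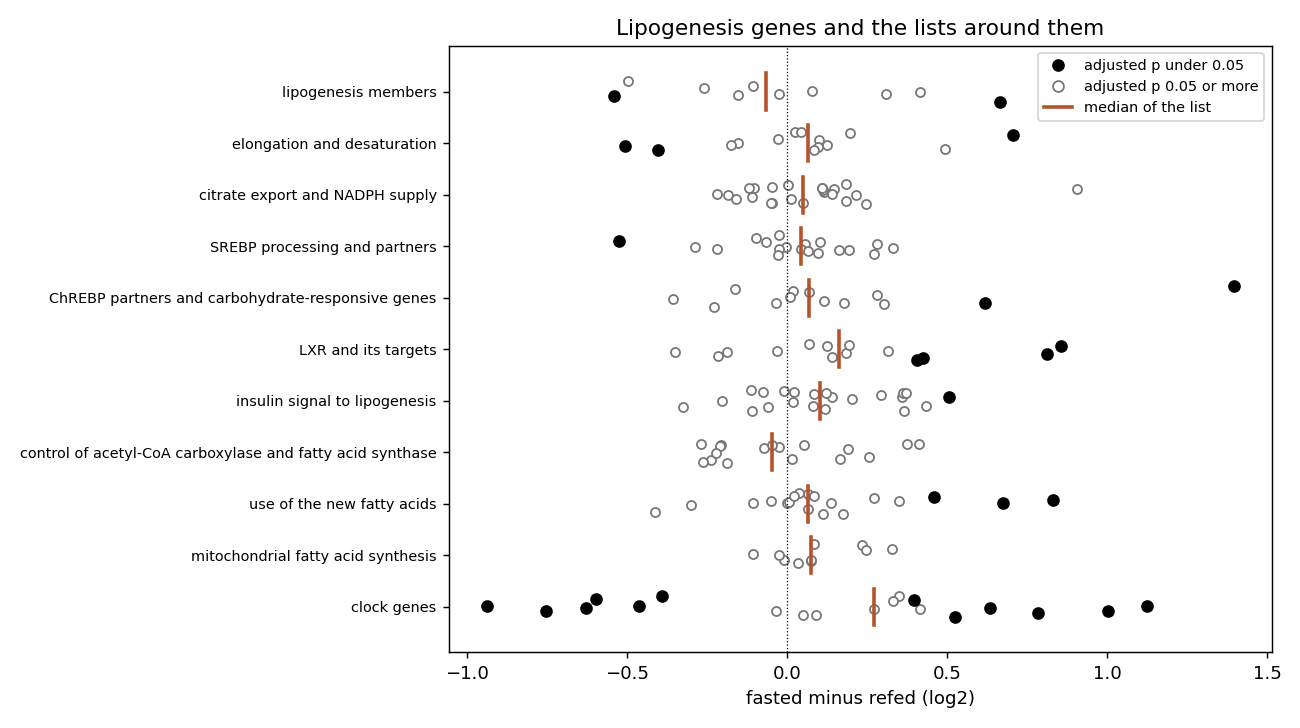
Change of each gene (horizontal axis, fasted minus refed on the log2 scale) in the 10 lipogenesis genes and in 10 lists around them, with vertical jitter for display only. Filled points have an adjusted p under 0.05 over all genes and the coloured bars are list medians; every list but that of the clock genes had a median between -0.06 and 0.16.

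Several other signals differed between the arrays. Of 19 clock genes 6 were higher and 6 lower in the fasted arrays (median 0.27). Among them, Arntl fell by 0.94 (limma adjusted p = 0.000902) and Per2 by 0.75 (0.00146), while Per3 rose by 0.63 (0.00368) and Gm129, a repressor of the clock, rose by 0.78 (0.00361), all 4 also without any single array. Since the time of day is not stated, feeding state and time of day cannot be told apart for the lipogenesis genes.

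Of 18 acute phase genes 4 were lower and none higher in the fasted arrays (median -0.33). The summed level of the list was 16.40 to 16.44 in the fasted and 16.50 to 16.92 in the refed arrays. Lcn2, an iron-carrier binding protein of inflammation, read 8.23, 7.55 and 8.04 in the fasted arrays and 8.69, 12.16 and 12.47 in the refed arrays. Refed 1, in which Thrsp was highest, was thus far below refed 2 and refed 3 in Lcn2. Orm2 likewise read 9.45 in refed 1, 12.25 in refed 2 and 12.16 in refed 3. Saa1, Saa2 and Saa3, not called, read 5.22, 7.02 and 7.37 in refed 1. They read 9.33 to 12.25 in refed 2 and 10.05 to 12.45 in refed 3. Saa4 (13.20, 13.03 and 13.13 in the refed arrays) and Orm3 (7.40, 7.37 and 7.85) did not show this. The part of these differences among the refed arrays in the Thrsp values was not tested.

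The other members called were Orm3 at -1.06 (limma adjusted p = 0.00152), Orm2 at -2.90 (0.0208) and Saa4 at -0.42 (0.0294), with Lcn2 at -3.17 (0.0494). The call of Orm3 held without any single array, that of Lcn2 held only without refed 1, that of Saa4 only without refed 2, and that of Orm2 only without refed 1 or refed 2.

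The tissue label was checked by cell type markers. The 8 hepatocyte markers were bright, at 12.57 to 14.21, with no call and a summed level of 16.62 to 16.68 in the fasted and 16.63 to 16.65 in the refed arrays. Adipocytes also make fatty acids, and their 8 markers read 4.12 to 7.57, beside array medians of 6.73 to 6.81. Adipoq read 4.12 to 4.58, and Cfd read 7.41 to 7.57 in the fasted and 7.14 to 7.29 in the refed arrays, a change of 0.24 (limma adjusted p = 0.225). The list had a summed level of 9.49 to 9.62 in the fasted and 9.36 to 9.55 in the refed arrays, and none was called. Of 6 Kupffer cell markers all had a negative change and 1, Vsig4, was called (-0.71, limma adjusted p = 0.00904, lost without fasted 1 at 0.0543). The summed Kupffer level was 11.06 to 11.14 in the fasted and 11.30 to 11.62 in the refed arrays. Levels were summed on the unlogged scale, where Vsig4, the brightest Kupffer marker in every array, weighs most. The groups overlapped in Clec4f (-0.10), Cd5l (-0.18), Marco (-0.04) and Emr1 (-0.27), and did not overlap in Timd4 (-0.26).

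Of 5 cholangiocyte markers 1, Sox9, was called (-0.53, limma adjusted p = 0.0141), and the call was lost without fasted 1, fasted 2 or refed 3 (up to 0.0667). The summed level was 9.75 to 9.81 in the fasted and 9.92 to 10.01 in the refed arrays. The markers did not go 1 way, with 4 negative changes, among them Krt7 at -0.08 and Epcam at -0.01, and 1 positive, Spp1 at 0.27 (limma adjusted p = 0.376). No marker was called among 6 of stellate cells, 5 of sinusoidal endothelium, 6 of blood and neutrophils, 5 of exocrine pancreas and 5 sex-linked genes. The endothelial markers had a median change of 0.21, with 4 positive and 1 negative. Their summed level was 11.82 to 11.84 in the fasted and 11.55 to 11.89 in the refed arrays. The summed blood level was 13.14 to 13.27 in the fasted and 12.95 to 14.08 in the refed arrays. Hba-a1 read 13.92 in refed 2, beside 12.60 in refed 1 and 12.97 in refed 3. Over the 6 arrays Xist, a transcript of the inactive X of females, read 4.51 to 4.76. The Y-linked genes Ddx3y and Uty read 8.94 to 9.75 and 8.07 to 8.49, the pattern of male mice. In pooled tissue, fewer cells of a type and less RNA per cell cannot be told apart. The part of the adipocyte, Kupffer, cholangiocyte, endothelial and blood markers in the changes of the lipogenesis genes was not tested.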

How the data were processed

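Total RNA of fasted and refed wild-type livers was read on 6 arrays (3 per condition). Per the labels, the authors deposited background-corrected, normalised log2 values from RMA in Affymetrix Expression Console 1.3.1.187. Gene symbols and positions were taken from the annotated table that came with them, whose text names NCBIM37. Its 7 columns of the authors' own comparison (fold change, p-values and means) were not reported, with the livWTR mean serving only to check identifiers, and 12 per-array columns tied to no labelled sample were not used. Of 24446 transcript clusters with 1 symbol, 558 whose refed mean lay over 1 log2 from that mean were left out, and the brightest cluster stood for a gene with several.

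The fit was made in limma 3.58.1 (R 4.3.3; lmFit and eBayes, group as the only term) over 21531 genes, with two-sided tests and no filter on dim genes. The fit was also run on simulated data with planted changes, drawn independently for each gene and without array effects. That run does not test the calls made here. Paired members were compared by exact permutation of the arrays. All genes of the set are named, with up to 4 called genes of each list by adjusted p, or 2 where a pathway list had none called, and the 3 genes most like each called member. 1 gene of the carbohydrate list is not reported here and was left out of its counts. The members and lists were chosen with earlier results of these data known. Sequences are from RefSeq, GRCm38.p6. Arrays give no depth, so their number limits the precision. The alternatives were a replicate block, each array left out, other normalizations, variance priors and weights, and other filters on genes and clusters.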

Additional observations from a re-analysis of the deposited data

How the results depend on the processing

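Acss2 and Mid1ip1 were each called in 16 of 17 alternatives, and 9 of the 10 genes kept their direction in every alternative that measured them. Acaca turned to 0.0046 without fasted 2, 0.0040 without fasted 3 and 0.046 without refed 1, within a range of -0.081 to 0.046 with each array left out. With each array left out, 1 to 3 of the 10 genes were called. Leaving out both fasted 3 and refed 2, chosen after seeing the data, left 1 (Acss2, with Mid1ip1 at an adjusted p of 0.0501) and 413 genes in all.

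Over all genes, 651 were called, and 266 to 616 with each array left out, lowest without fasted 1 and then refed 3 (336) and fasted 2 (392). The replicate numbers were not taken as pairs in the main fit. Deviations of same-numbered arrays from their group means correlated at 0.07, -0.23 and -0.33. With 3 arrays per group these values cannot show whether arrays were handled in pairs. With the replicate block 457 genes were called and the 2 calls among the 10 genes held. Of the other genes named, Elovl1, Ubxn4, Lpcat3, Abcg5, Gpam, Saa4 and Necab1 lost their calls with it and Acss3 gained one. Lcn2 was called in only 6 of 17 alternatives.

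The difference between Thrsp and Mid1ip1 turned to -0.077 without refed 2 and -0.074 without refed 3, and lay between -0.077 and 0.28 with each array left out. The deposited values are summaries, so how far each gene stood above background is unknown here.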
